A study of Mus musculus with 16 samples.

Results

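The 10 genes described here are Yap1 and Wwtr1, which encode the transcriptional coactivators YAP and TAZ, Tead1, which encodes a DNA-binding partner of both, and Cyr61, Ctgf, Ankrd1, Amotl2, Lats2, Ajuba and Axl, which are widely used as readouts of YAP and TEAD activity. They were chosen by gene name from the 54532 genes of the deposited count table, and each name matched 1 row. They were followed in 16 cultures of differentiated jejunal enteroids, epithelial cultures grown from mouse intestinal crypts, in 4 groups of 4 cultures from 4 mice each. MYO5BΔIEC enteroids carried Vil-CreERT2 and Myo5b flox on both alleles, MYO5B(G519R) enteroids carried Vil-CreERT2 with Myo5b flox on 1 allele and the G519R mutation on the other, and both were given 1 µM 4-OH-tamoxifen for 24 hours to induce Cre, which the villin promoter restricts to intestinal epithelium. The remaining group was MYO5BΔIEC enteroids treated with 100 nM Compound-1, an agonist that prefers the lysophosphatidic acid receptor LPAR5, for 2 days of differentiation, while the MYO5BΔIEC group received the PBS vehicle. The labels describe the controls only as control and name no tamoxifen for them, so in any comparison with control a drug effect and the loss of MYO5B, the apical recycling motor lost in microvillus inclusion disease, cannot be told apart. The study's methods describe control cultures as floxed ones given vehicle and a legend calls them healthy littermates, so the genotype of the controls is not settled here.

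In the Hippo pathway, the kinases STK3 and STK4 (MST), helped by SAV1 and MOB1, activate LATS1 and LATS2, which phosphorylate YAP and TAZ and keep them out of the nucleus. When this kinase cascade is low, YAP and TAZ enter the nucleus and bind TEAD factors on DNA, where they activate genes that include negative regulators of the pathway itself, such as LATS2 and AMOTL2. In the intestinal epithelium, YAP is best known for the regenerative program that follows injury. YAP and TAZ are controlled largely by phosphorylation and location, which RNA levels do not measure.

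All 10 genes had higher mean levels in each model group than in control, and 7 of 10 rose in MYO5BΔIEC (13.5% of all genes tested rose, and 27.4% changed in either direction) and 7 of 10 in MYO5B(G519R) enteroids (13.1% and 26.8% of all genes). Ankrd1 and Axl, which are among the 7 in each model, could be tested only through the model groups and so had to be higher there. Ctgf, a secreted matricellular protein and a standard readout of YAP activity, rose by 6.87-fold in MYO5BΔIEC and 5.56-fold in MYO5B(G519R) enteroids. Yap1 itself rose least among the called members, by 1.38-fold and 1.51-fold. Wwtr1 did not pass the test in either. With Compound-1 against vehicle none of the 10 passed the edgeR test (0.00% of all genes did), and none passed between MYO5B(G519R) and MYO5BΔIEC enteroids (0.00557% of all genes did).

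Between 27804968 and 40101729 reads were counted per culture. Levels are given as CPM, counts scaled to library size with edgeR's TMM factors, and a gene between groups was tested with edgeR's quasi-likelihood test, adjusted by the Benjamini-Hochberg method over all genes tested. Control culture 1 stood apart from the other controls. Its log2 levels correlated with theirs at r of 0.93 to 0.939 over genes, against 0.982 to 0.99 among control cultures 2 to 4. Its summed level of 8 enterocyte markers was 2775 CPM, against 12179 to 15212 CPM in the other controls and 4956 to 10826 CPM in the 12 cultures of the other groups. In MYO5BΔIEC against control Alpi and Krt20 rose (log2 fold changes 1.23 and 0.87, edgeR adjusted p = 0.0122 and 0.0209). Lct and Apoa4 were above 0, and Fabp1 (-1.56), Fabp2 (-1.33), Sis and Apoa1 below 0, without passing. In MYO5B(G519R) enteroids only Sis was called, at -1.10 (edgeR adjusted p = 0.0464). Control culture 1 also had the highest level of the 4 controls for 9 of the 10 genes, a count not made for all genes. Values without control culture 1 are therefore also given for the members in the 2 models. Because it was singled out partly by these levels, leaving it out raises the fold changes of those 9 genes. The p values without it are therefore no independent test. Mitochondrial genes took 6.41% of its counts, against 9.07% to 10.4% in control cultures 2 to 4 and 3.79% to 6.63% in the other groups. Its TMM factor was 1.00, against 0.845 to 0.879 in the other controls and 1.00 to 1.10 in the other groups. The part of these markers, the mitochondrial share and the scaling factors in the results was not tested, and in bulk RNA fewer cells of a type and less RNA per cell cannot be told apart. Of 8 fibroblast genes, Col3a1, Dcn and Lum had no count in any culture and the 8 summed to at most 1.98 CPM in any culture. Among them Col1a1 was called in MYO5B(G519R) against control (log2 fold change 2.39, edgeR adjusted p = 0.0476) at mean levels of 0.317 and 0.0562 CPM. Col1a1 had at most 5 counts in a control culture and 6 to 17 in MYO5B(G519R) cultures. It could be tested only through the latter, where it had to be higher. Col1a2 had no count in control and means of 0.166 CPM in MYO5BΔIEC and 0.0981 CPM in MYO5B(G519R) enteroids. The endothelial genes of a 5-gene list summed to at most 1.35 CPM in any culture. The 8 epithelial markers summed to 6644 to 8118 CPM in control and 9709 to 10627 CPM in MYO5BΔIEC enteroids. They summed to 8718 to 10948 CPM in MYO5B(G519R) and 10358 to 16533 CPM in treated enteroids. Vil1, Cdh1, Krt8 and Krt19 rose in MYO5BΔIEC against control (log2 fold changes 1.08, 0.92, 0.65 and 0.72, edgeR adjusted p up to 0.0389). Krt18 and Cdx2 were above 0, and Epcam and Cdx1 below 0, without passing. The part of the epithelial markers in the results was not tested. The targeted gene, Myo5b, was at 160 to 230 CPM in control, 101 to 169 CPM in MYO5BΔIEC, 136 to 173 CPM in MYO5B(G519R) and 87.2 to 149 CPM in treated enteroids, counted over the whole gene and not over the deleted exons.

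TEAD factors bind the core motif GGAATG, and this motif was looked for on both strands of RefSeq promoter windows reaching from 250 bases before to 50 bases after each transcription start (GRCm38.p6). Of the 10 members 8 had a window, and all 8 held the motif in at least 1 window, against 16.6% of 27025 genes with a window. The match is shown for each below, 30 bases read along the strand of the gene, with the motif in capitals (CATTCC where it lies on the opposite strand).
Cyr61: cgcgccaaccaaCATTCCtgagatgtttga
Ankrd1 upstream: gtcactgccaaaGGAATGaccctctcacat
Ankrd1 near: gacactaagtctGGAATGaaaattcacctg
Amotl2: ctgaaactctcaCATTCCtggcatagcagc
Lats2: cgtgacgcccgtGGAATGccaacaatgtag
Ajuba upstream: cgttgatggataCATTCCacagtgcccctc
Ajuba near: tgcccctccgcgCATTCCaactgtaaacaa
Axl: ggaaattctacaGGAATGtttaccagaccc
Yap1: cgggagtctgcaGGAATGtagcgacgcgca
Wwtr1: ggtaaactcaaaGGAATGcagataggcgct

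On the minus strand these stretches lie at chr3:145650071-145650100 (Cyr61), chr19:36120037-36120066 and chr19:36119950-36119979 (Ankrd1), chr14:57746102-57746131 (Lats2), chr14:54577830-54577859 and chr14:54577808-54577837 (Ajuba), chr7:25788949-25788978 (Axl), chr9:8004720-8004749 (Yap1) and chr3:57576029-57576058 (Wwtr1). The Amotl2 stretch lies on the plus strand at chr9:102717727-102717756. Most of them lie upstream of the start and outside annotated exons. The Ankrd1 and Amotl2 stretches overlap exons of other transcripts of the same gene in GENCODE M21, and the Lats2 motif lies 5 bases after the start, inside the transcript. Ajuba and Ankrd1 had a pair of motifs each. The Ajuba pair lies 186 and 164 bases before the start, and is shown here with the whole 250 bases upstream (chr14:54577662-54577911, minus strand), in which no exon is annotated.
Ajuba promoter: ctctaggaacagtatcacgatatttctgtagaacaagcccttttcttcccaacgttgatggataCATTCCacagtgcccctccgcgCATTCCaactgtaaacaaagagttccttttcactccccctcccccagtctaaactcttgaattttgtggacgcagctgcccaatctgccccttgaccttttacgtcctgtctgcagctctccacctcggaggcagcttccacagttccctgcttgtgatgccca

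**Figure D1:**
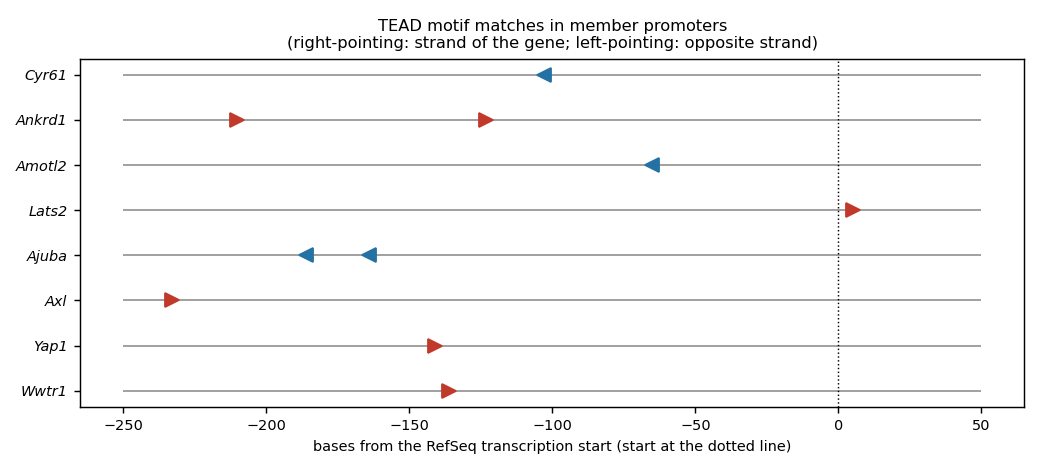
Positions of the TEAD core motif in the RefSeq promoter windows of 8 members, by distance in bases from the transcription start (dotted line); right-pointing marks are on the strand of the gene and left-pointing marks on the opposite strand. All but the Lats2 match lie before the start, and Wwtr1, which has a pair of start sites, is drawn from the upstream one.

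Other motifs were rarer in these windows. The AP-1 motif TGANTCA, bound by FOS and JUN proteins that often share enhancers with TEAD, was in 0 of the 8 genes, against 8.97% of all genes. The CArG box bound by SRF was likewise in 0 of 8, against 1.81%. Of 16 further YAP and TAZ targets from a commonly used signature, 10 had a window and 2 of these held the TEAD motif (20%). A match is a run of letters in a short window and no measure of binding, and TEAD sites were already known in the promoters of several of these genes when they came to be used as readouts.

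Among the coactivators and their DNA-binding partner, Yap1 had the narrowest spread relative to its mean. Yap1 (ENSMUSG00000053110, chr9:7931999-8004596) had 90.6, 69.6, 82.7 and 75.2 CPM in control cultures 1 to 4. It had 119, 111, 99.8 and 108 CPM in MYO5BΔIEC and 115, 115, 120 and 129 CPM in MYO5B(G519R) enteroids. No culture of either model overlapped the controls. The rise was 0.47 on the log2 scale in MYO5BΔIEC (SE 0.13, adjusted p = 0.0219 by edgeR) and 0.59 in MYO5B(G519R) enteroids (SE 0.11, adjusted p = 0.00552 by edgeR), or 0.54 and 0.69 without control culture 1. The second of these calls held with each culture left out. It also held, at a log2 fold change of 0.42, with the gene length trend removed (edgeR adjusted p = 0.0113). The first was lost when control culture 2, 3 or 4 or MYO5BΔIEC culture 1 or 2 was left out (edgeR adjusted p up to 0.0756) and also when the trend of fold change on gene length was removed (log2 fold change 0.25, edgeR adjusted p = 0.133).

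Wwtr1 (ENSMUSG00000027803, chr3:57455649-57575910), which encodes TAZ, had 20.8, 3.39, 8.68 and 4.67 CPM in control, 12.5, 24.3, 16.4 and 14.9 CPM in MYO5BΔIEC and 18.6, 14.6, 23.1 and 5.61 CPM in MYO5B(G519R) enteroids. Control culture 1 lay within the range of both models. The log2 fold changes were 0.87 (SE 0.48, adjusted p = 0.207 by edgeR) and 0.72 (SE 0.57, adjusted p = 0.38 by edgeR), and without control culture 1 they were 1.61 (edgeR adjusted p = 0.00254) and 1.5 (edgeR adjusted p = 0.0199). In the fits without that culture 42.0% and 46.2% of all genes passed. Tead1 (ENSMUSG00000055320, chr7:112679318-112906807) showed the same high control: it had 62.5, 33.3, 31.4 and 31.5 CPM in control, 64.7, 72.3, 71.1 and 60.7 CPM in MYO5BΔIEC and 59.8, 61.2, 72.1 and 59.9 CPM in MYO5B(G519R) enteroids. It rose by 0.77 on the log2 scale in MYO5BΔIEC (SE 0.22, adjusted p = 0.0268 by edgeR) and by 0.67 in MYO5B(G519R) enteroids (SE 0.22, adjusted p = 0.0485 by edgeR). With the gene length trend removed these values shrank to 0.50 and 0.47 and still passed (edgeR adjusted p = 0.0418 and 0.0423). The first call was kept without control culture 1 (log2 fold change 1.07) or MYO5BΔIEC culture 4 and was lost without any of the other 6 cultures (edgeR adjusted p up to 0.0828). The second was kept without control culture 1 (log2 fold change 1.01) and was lost without any of the other 7 (edgeR adjusted p up to 0.129).

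**Figure D2:**
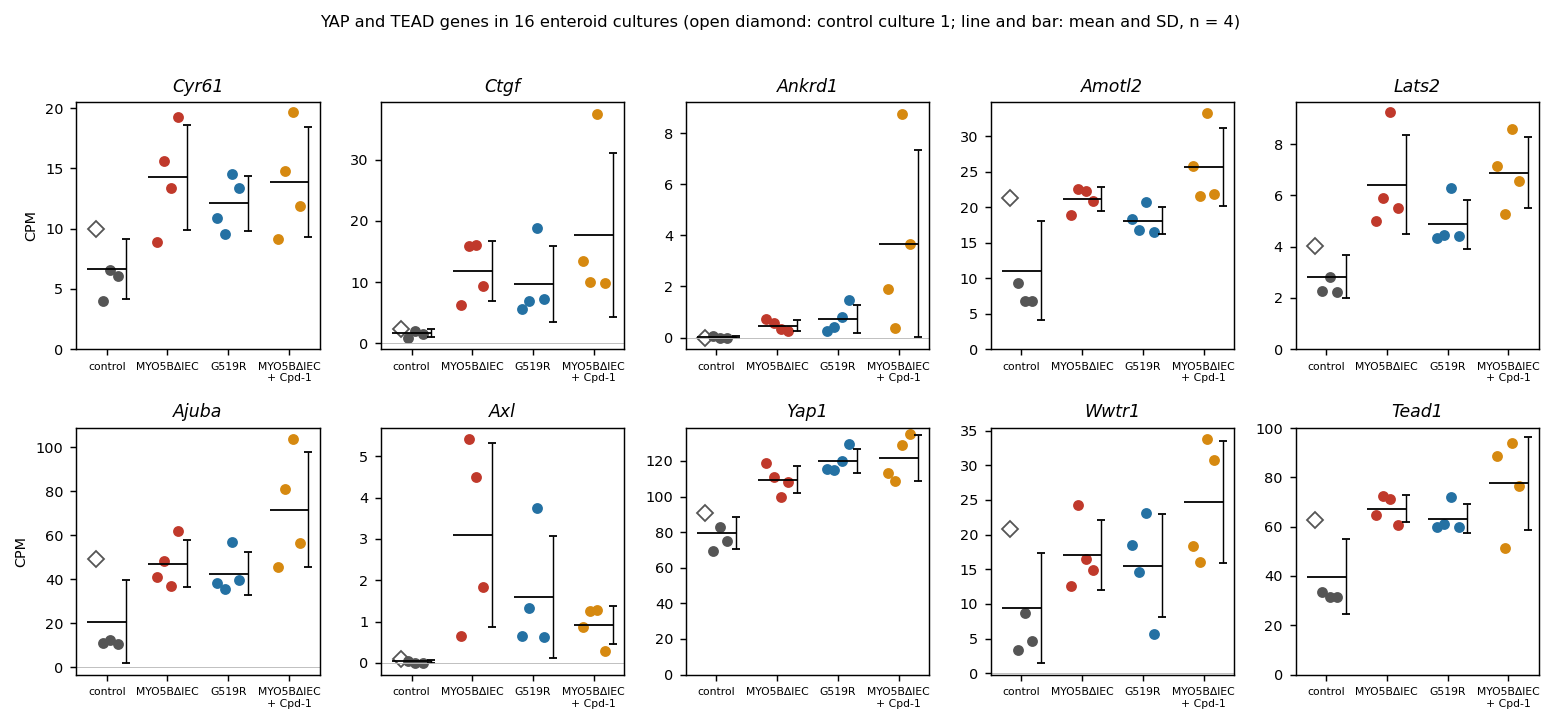
Level in CPM of each of the 10 genes in every culture, by group (control, MYO5BΔIEC, G519R for MYO5B(G519R), and MYO5BΔIEC with Compound-1); the open diamond is control culture 1, and the line and bar are the mean and SD of 4 cultures. For Ctgf, Ankrd1, Lats2, Axl and Yap1 the 4 controls lie below every other culture, and for Ajuba and Wwtr1 control culture 1 lies among the other groups.

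The secreted matricellular proteins CCN2 and CCN1 are encoded by Ctgf and Cyr61, the usual first readouts of YAP and TEAD. Ctgf (ENSMUSG00000019997, chr10:24595442-24598683) had 2.35, 0.897, 2.08 and 1.59 CPM in control. It had 6.23, 15.9, 16 and 9.31 CPM in MYO5BΔIEC and 5.58, 6.86, 18.8 and 7.24 CPM in MYO5B(G519R) enteroids. Every culture of both models was above every control, control culture 1 included. Ctgf rose by 2.78 on the log2 scale in MYO5BΔIEC (SE 0.38, adjusted p = 0.00168 by edgeR) and by 2.47 in MYO5B(G519R) enteroids (SE 0.44, adjusted p = 0.00458 by edgeR), and both calls held with each culture left out in turn. The rises were 2.96 and 2.69 without control culture 1. A lowly counted antisense gene, Gm15270, overlaps Ctgf with a mean of 10.1 counts per culture.

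Cyr61 (ENSMUSG00000028195, chr3:145646976-145649981) moved less. It had 9.998, 4.02, 6.54 and 6.11 CPM in control, 8.86, 15.6, 13.3 and 19.3 CPM in MYO5BΔIEC and 10.9, 9.59, 14.6 and 13.4 CPM in MYO5B(G519R) enteroids. The groups overlapped by 1 culture in each model. Cyr61 rose by 1.10 on the log2 scale in MYO5BΔIEC (SE 0.30, adjusted p = 0.0207 by edgeR) and by 0.86 in MYO5B(G519R) enteroids (SE 0.26, adjusted p = 0.0374 by edgeR). The first call was lost without control culture 2, 3 or 4 or MYO5BΔIEC culture 2 or 4 (edgeR adjusted p up to 0.0603), and the second without any culture but control culture 1 (edgeR adjusted p up to 0.1). The log2 fold changes were 1.37 and 1.16 without control culture 1.

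Ankrd1 and Axl were close to absent from control enteroids. Ankrd1 (ENSMUSG00000024803, chr19:36111965-36119844) encodes an ankyrin repeat protein best known from cardiac muscle and is a strong YAP target in many cells. Its counts in control cultures 1 to 4 were 0, 2, 0 and 0, or at most 0.0665 CPM. It had 0.719, 0.569, 0.319 and 0.27 CPM in MYO5BΔIEC and 0.239, 0.414, 0.789 and 1.48 CPM in MYO5B(G519R) enteroids. All 8 model cultures exceeded all controls, although none of these levels passed 1.48 CPM. The ratio of summed CPM-scaled counts to control was 28.6 (95% counting interval 7.58 to 241) in MYO5BΔIEC and 43.8 (11.8 to 367) in MYO5B(G519R) enteroids, intervals that cover counting error only. The test gave edgeR adjusted p = 0.00697 and 0.00607, and neither call was lost when a culture was left out, except that without MYO5BΔIEC culture 1 or 2 the gene had too few counts to be tested in MYO5BΔIEC enteroids. Both control counts are from control culture 2, without which every control is at 0 and no fold is given.

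Axl (ENSMUSG00000002602, chr7:25757273-25788705) encodes a receptor tyrosine kinase for GAS6. Its control counts were 3, 1, 0 and 0, and its levels were 0.659, 5.42, 4.49 and 1.83 CPM in MYO5BΔIEC and 0.657, 1.33, 3.75 and 0.633 CPM in MYO5B(G519R) enteroids. The groups did not overlap, and the levels within each model spread widely. The ratio to control was 91.6 (95% counting interval 35.5 to 338) and 49.5 (19.1 to 183), with edgeR adjusted p = 0.00176 and 0.00411. Control culture 1 holds 3 of the 4 control counts, and without it the fitted log2 fold changes, which are no bound at such counts, were 7.66 and 6.75. Both calls held with each culture left out, and the second was lost by limma on log2(FPKM + 1) (log2 fold change 0.36, adjusted p = 0.0897). Axl is also expressed by fibroblasts, endothelium and macrophages, and the sums of 8 fibroblast genes were 0.631 to 1.32 CPM in control, 1.11 to 1.98 CPM in MYO5BΔIEC and 0.806 to 1.66 CPM in MYO5B(G519R) enteroids. The sums of 6 immune genes were 4.14 to 5.67, 5.99 to 11.7 and 5.61 to 6.9 CPM in the same order, higher in every model culture but 1 than in every control. Most of each sum was Cd68 (means of 2.95, 6.28 and 4.09 CPM) and Itgam (1.46, 2.28 and 1.89 CPM). Cd68 rose in MYO5BΔIEC enteroids (log2 fold change 1.09, edgeR adjusted p = 0.0332). It did not pass in MYO5B(G519R) enteroids (0.47, edgeR adjusted p = 0.183), and Itgam passed in neither. Ptprc, Cd3e, Cd79a and Lyz2 had means of at most 0.432 CPM. Those means were lower in both models than in control, except that Ptprc was higher in MYO5B(G519R) enteroids (0.0812 against 0.0351 CPM). The part of the fibroblast and immune genes in the Axl result was not tested.

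Lats2, Amotl2 and Ajuba act back on the pathway that controls YAP. Lats2 (ENSMUSG00000021959, chr14:57689662-57758388), one of the pair of kinases that phosphorylate YAP, had 4.01, 2.26, 2.82 and 2.22 CPM in control, 5.00, 5.90, 9.27 and 5.52 CPM in MYO5BΔIEC and 4.33, 4.44, 6.31 and 4.40 CPM in MYO5B(G519R) enteroids. Every model culture lay above every control. Lats2 rose by 1.19 on the log2 scale in MYO5BΔIEC (SE 0.28, adjusted p = 0.0111 by edgeR), a call kept with each culture left out, and by 0.78 in MYO5B(G519R) enteroids (SE 0.25, adjusted p = 0.0428 by edgeR), a call kept without control culture 1 and lost without any other (edgeR adjusted p up to 0.115). The second call was also lost with no filter on low counts, with limma on log2(FPKM + 1) and in a fit blocked by replicate (adjusted p of 0.0572, 0.0663 and 0.0594). The values were 1.40 and 1.03 without control culture 1.

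Amotl2 (ENSMUSG00000032531, chr9:102716672-102733418) encodes an angiomotin family protein that holds YAP at junctions and promotes its phosphorylation. Its control levels were 21.4, 9.37, 6.86 and 6.74 CPM, its MYO5BΔIEC levels 18.9, 22.7, 22.3 and 20.9 CPM and its MYO5B(G519R) levels 18.4, 16.7, 20.8 and 16.6 CPM. The model cultures were tightly grouped and control culture 1 lay within or above them, at 2.28 times the next control. The log2 fold changes of 0.94 (SE 0.34, adjusted p = 0.0587 by edgeR) and 0.71 (SE 0.34, adjusted p = 0.154 by edgeR) did not pass the threshold, and without control culture 1 they were 1.47 (edgeR adjusted p = 9.6e-05) and 1.27 (edgeR adjusted p = 0.000162). In the fits without that culture, left out partly because it was high in these genes, 42.0% and 46.2% of all genes passed. With all cultures, Amotl2 passed in MYO5BΔIEC enteroids under 5 of 9 other ways of processing, DESeq2 among them (adjusted p = 0.0242), and in MYO5B(G519R) enteroids under none of them.

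Ajuba (ENSMUSG00000022178, chr14:54567472-54577558) encodes a LIM-domain protein that binds LATS kinases and restrains them, and its promoter carries the pair of TEAD motifs shown above. It had 49.2, 11, 12.2 and 10.4 CPM in control, 41.2, 48.3, 37.1 and 61.8 CPM in MYO5BΔIEC and 38.1, 35.7, 56.9 and 39.4 CPM in MYO5B(G519R) enteroids. Control culture 1 was at 4.02 times the next control and above 7 of the 12 cultures of the other groups. The log2 fold changes were 1.19 (SE 0.47, adjusted p = 0.0811 by edgeR) and 1.04 (SE 0.48, adjusted p = 0.138 by edgeR), and without control culture 1 they were 2.08 (edgeR adjusted p = 4.02e-05) and 1.95 (edgeR adjusted p = 4.22e-05). In the fits without that culture, left out partly because it was high in these genes, 42.0% and 46.2% of all genes passed. With all cultures, Ajuba passed in MYO5BΔIEC enteroids under the same 5 of 9 other ways of processing (DESeq2 adjusted p = 0.0287), and in MYO5B(G519R) enteroids only in the fit blocked by replicate (adjusted p = 0.0472).

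Counted together, 7 of 10 members rose in MYO5BΔIEC enteroids and none fell, where 13.5% of the 17951 genes tested rose and 13.8% fell. In MYO5B(G519R) enteroids 7 of 10 rose and none fell, where 13.1% of 17829 genes rose and 13.7% fell. The same 7 genes passed in both: Cyr61, Ctgf, Ankrd1, Lats2, Axl, Yap1 and Tead1. Ankrd1 and Axl had enough counts to be tested only through the model groups, so that they had to be higher there, and of the other 8 members 5 rose in each model. In 5 of 10 genes, Ankrd1 and Axl among them, in both models, the groups did not overlap, with the model higher, which held for 13.0% and 13.6% of all genes in turn. The median log2 fold change of the members was 1.15 and 0.82, and that of all genes was -0.01 and -0.05. These comparisons share the 4 controls. Without control culture 1 all 10 members passed in each, but so did 42.0% and 46.2% of all genes, with 21.2% and 24.0% higher. With another culture left out between 3 (without MYO5BΔIEC culture 2) and 6 passed in MYO5BΔIEC and 4 in every case in MYO5B(G519R) enteroids.

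**Figure D3:**
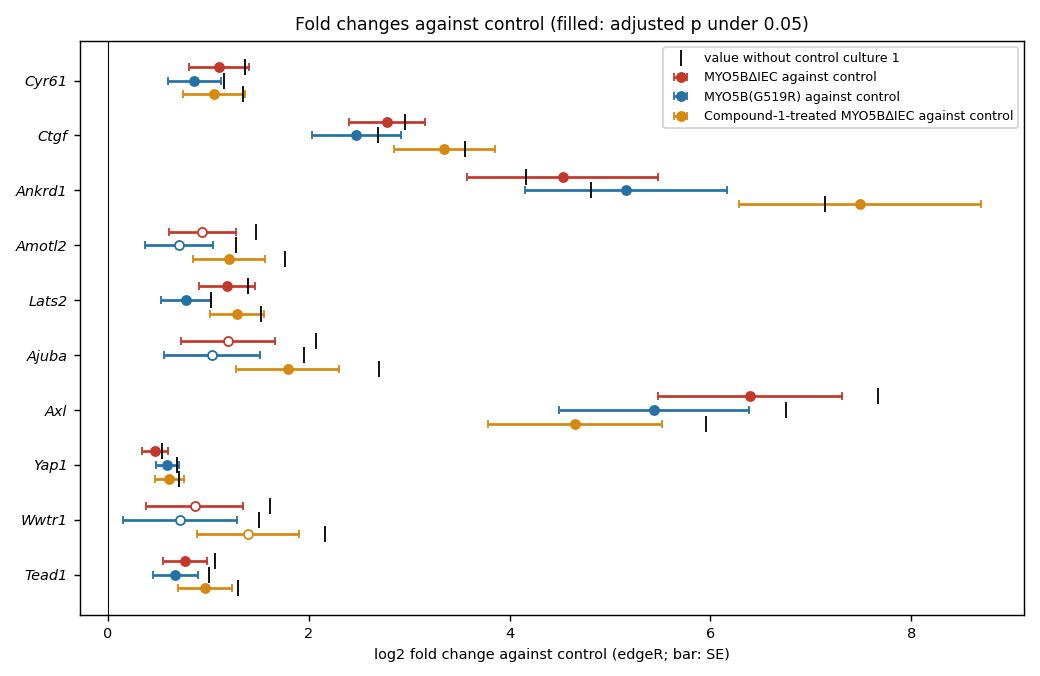
Log2 fold change of the 10 genes against control, with its SE, in the 2 models and in MYO5BΔIEC enteroids given Compound-1; filled points have an edgeR adjusted p under 0.05, and black ticks give the fold change without control culture 1. All points lie above 0, Wwtr1 is open in all 3 comparisons, and the values for Ankrd1 and Axl, which have 2 and 4 counts in all controls, are poorly bounded.

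The 2 models were then compared with each other, to ask whether the point mutation and the deletion differ in these genes. None of the 10 passed the edgeR test (1 of 17943 genes, 0.00557%, passed), all 10 overlapped between the groups (0.830% of all genes were higher and 1.02% lower without overlap), and at an unadjusted p under 0.05 there was again none of the 10 against 4.30% of all genes. The largest differences were in Axl, whose log2 fold change in MYO5B(G519R) against MYO5BΔIEC enteroids was -0.95 (SE 0.68, adjusted p = 0.838 by edgeR), and in Ankrd1, at 0.62 (SE 0.57, adjusted p = 0.841 by edgeR). For Yap1 and Tead1 the SE was 0.1 and 0.11, so that smaller differences could have been seen, and the values were 0.13 and -0.09. A p that misses the threshold does not show that the models act alike.

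Compound-1 was tested against vehicle within MYO5BΔIEC enteroids, a comparison free of the controls. None of the 10 genes passed, as none of 18037 genes did (0.00%), and at an unadjusted p under 0.05 it was 3 of 10 (Ankrd1, Axl and Ajuba), against 7.51% of all genes. All 10 overlapped between the groups, where 1.59% of all genes were higher and 1.27% lower without overlap. Ankrd1 had 1.91, 0.376, 8.76 and 3.65 CPM with Compound-1 and 0.719, 0.569, 0.319 and 0.27 CPM with vehicle. Of the 4 treated cultures 3 were above every vehicle culture, and the second lay within their range. The log2 fold change was 2.92 (SE 0.75, adjusted p = 0.532 by edgeR), between 2.03 (without treated culture 3) and 3.30 with 1 culture left out. DESeq2 called this gene alone among the members (adjusted p = 0.0164), and 91 genes in all.

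Axl was the one member other than Cyr61 with a lower mean after Compound-1. It had 0.871, 1.25, 1.28 and 0.285 CPM, against 0.659, 5.42, 4.49 and 1.83 CPM with vehicle, and the groups overlapped. The log2 fold change was -1.78 (SE 0.63, adjusted p = 0.56 by edgeR; DESeq2 adjusted p = 0.167). Ankrd1 and Axl thus had fold changes of opposite sign in the same cultures, neither of which passed the edgeR test.

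The other members lay closer to vehicle. Treated levels were 13.4, 9.99, 37.5 and 9.79 CPM for Ctgf, 9.11, 14.8, 19.7 and 11.9 CPM for Cyr61, and 45.5, 80.9, 104 and 56.5 CPM for Ajuba. Treated culture 3 was the highest of all 16 cultures for 7 of the 10 genes, a count not made for all genes. Without it the log2 fold change of Ctgf went from 0.54 (SE 0.45) to -0.13, and that of Ajuba from 0.58 (SE 0.25) to 0.35. Over the 10 genes the median was 0.21, with 8 values above 0 and 2 below, beside a median of 0.00345 for all genes.

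**Figure D4:**
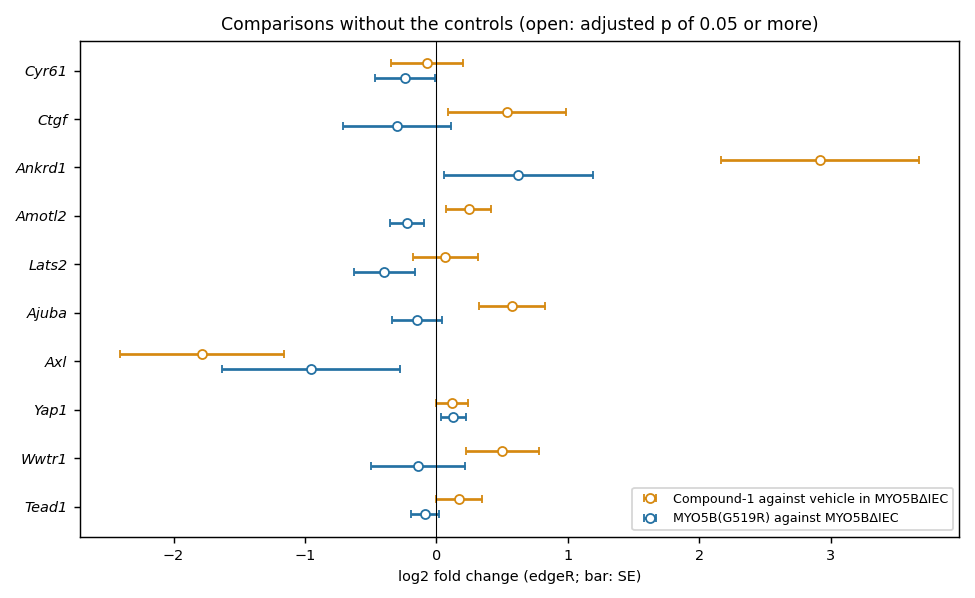
Log2 fold change with its SE for the 10 genes with Compound-1 against vehicle in MYO5BΔIEC enteroids and in MYO5B(G519R) against MYO5BΔIEC enteroids; open points have an edgeR adjusted p of 0.05 or more, as all do. Ankrd1 at 2.92 and Axl at -1.78 lie farthest from 0 under Compound-1.

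Treated MYO5BΔIEC enteroids were also set against control. All members but Wwtr1 rose, 9 of 10, where 15.7% of 17937 genes rose and 13.7% fell (29.4% in all), and 6 of 10 did not overlap with control, against 14.3% of all genes. Ankrd1 and Axl, which are among the 9 and among the 6, had enough counts to be tested only through the treated cultures. They therefore had to be higher there. Ctgf rose by 3.35 on the log2 scale (SE 0.50, adjusted p = 0.00398 by edgeR), Lats2 by 1.28 (SE 0.27, adjusted p = 0.00798 by edgeR) and Yap1 by 0.61 (SE 0.14, adjusted p = 0.0109 by edgeR). Ankrd1 was at 242 times control by its counts (95% counting interval 66.7 to 2003) and Axl at 28 times (10.7 to 104). Amotl2 and Ajuba, which missed the threshold with vehicle, rose by 1.21 (SE 0.36, adjusted p = 0.0295 by edgeR) and 1.79 (SE 0.51, adjusted p = 0.0249 by edgeR). Their values against vehicle were 0.24 (SE 0.17) and 0.58 (SE 0.25), so a difference between treated and vehicle cultures was not shown for either. Without treated culture 3 the value of Ctgf was 2.67, and without control culture 1 that of Ajuba was 2.70. The fitted values of Ankrd1, no bound at these counts, lay between 6.59 (without treated culture 3) and 7.87 with 1 culture other than control culture 2 left out. With 1 culture other than control culture 1 left out between 5 and 8 members passed, 5 without control culture 2, 3 or 4 or treated culture 3. Without control culture 1 all 10 passed, where 42.1% of all genes were called.

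The upstream regulators and core kinases of the Hippo pathway were examined as a list of 25 genes, which includes Lats1, Amot, Amotl1, Limd1 and Wtip, paralogs of members. In MYO5BΔIEC enteroids 7 of 25 rose and none fell, where 13.5% of all genes rose and 13.8% fell, and in MYO5B(G519R) enteroids 9 rose and 1 fell, where 13.1% and 13.7% did. The medians were 0.32 in both, beside -0.01 and -0.05 for all genes. Ptpn14, a phosphatase family protein that restrains YAP and is itself a YAP target, rose most, by 3.33 (SE 0.38, adjusted p = 0.0014 by edgeR) in MYO5BΔIEC and by 2.83 (SE 0.44, adjusted p = 0.00305 by edgeR) in MYO5B(G519R) enteroids. It had 4.26, 2.29, 2.56 and 2.11 CPM in control and 11.3 CPM or more in every culture of the other groups. Amotl1, another angiomotin, rose by 2.04 (SE 0.27, adjusted p = 0.00155 by edgeR) and 2.13 (SE 0.25, adjusted p = 0.00185 by edgeR). The scaffolds Wwc1 and Dlg5, the first of which activates LATS kinases, rose by 1.16 (SE 0.15, adjusted p = 0.00145 by edgeR) and 1.14 (SE 0.22, adjusted p = 0.00472 by edgeR) in MYO5BΔIEC enteroids.

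Apart from Lats2, the core kinases did not pass in either model. Stk3, Stk4 and Lats1 and the kinase partners Sav1 and Mob1b had adjusted p values above the threshold in both, and Mob1a fell in MYO5B(G519R) enteroids by 0.35 on the log2 scale (SE 0.11, adjusted p = 0.0414 by edgeR). Nf2, the upstream regulator merlin, rose by 0.35 (SE 0.11, adjusted p = 0.0436 by edgeR) and 0.47 (SE 0.10, adjusted p = 0.00684 by edgeR). Without control culture 1 the counts were 16 higher and 1 lower in MYO5BΔIEC and 19 higher and 2 lower in MYO5B(G519R) enteroids, and with another culture left out they were 6 to 7 and 9 higher. In the fits without control culture 1, 21.2% of all genes were higher and 20.8% lower in MYO5BΔIEC, and 24.0% and 22.1% in MYO5B(G519R) enteroids.

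Among the paralogs, Tead3 rose in both models, by 0.60 (SE 0.14, adjusted p = 0.01 by edgeR) and 0.77 (SE 0.12, adjusted p = 0.00293 by edgeR). Tead2 and Tead4 did not pass, with log2 fold changes of -0.26 (SE 0.27) and -0.28 (SE 0.48) in MYO5BΔIEC and 0.16 (SE 0.14) and 0.49 (SE 0.34) in MYO5B(G519R) enteroids. Lats1, the partner of Lats2, was at 0.21 (SE 0.24, adjusted p = 0.561 by edgeR) and 0.10 (SE 0.24, adjusted p = 0.802 by edgeR). Amot and Limd1 did not pass in either model, with values of 0.30 (SE 0.18) and 0.28 (SE 0.17) in MYO5BΔIEC enteroids. Wtip, which like Ajuba and Limd1 binds LATS kinases, rose in MYO5B(G519R) enteroids by 0.75 (SE 0.17, adjusted p = 0.0126 by edgeR), beside 0.48 (SE 0.23, adjusted p = 0.143 by edgeR) in MYO5BΔIEC enteroids, and the difference between the models did not pass (0.27, edgeR adjusted p = 0.838). Of 7 genes for the other TEAD factors and their VGLL cofactors, 5 had enough counts to be tested, of which 2 rose in MYO5BΔIEC (Tead3 and the weakly expressed Vgll3) and 1 in MYO5B(G519R) enteroids (Tead3). Of all genes 13.5% and 13.1% rose. Vgll3 had 2 to 14 counts per control culture and 20 to 39 per MYO5BΔIEC culture, and passed the count filter through the latter. Without control culture 1 the numbers that rose were 2 and 4, where 21.2% and 24.0% of all genes did.

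Of the 16 further YAP and TAZ targets, 14 could be tested. In MYO5BΔIEC enteroids 9 rose and none fell, at a median log2 fold change of 1.11, where 13.5% of all genes rose. In MYO5B(G519R) enteroids 7 rose and none fell, at a median of 0.75, where 13.1% rose. Besides Ptpn14, which is on both lists, Arhgef17 rose by 2.05 (SE 0.28, adjusted p = 0.00168 by edgeR) and 2.20 (SE 0.22, adjusted p = 0.00177 by edgeR). Myof, the membrane repair protein myoferlin, rose by 1.97 (SE 0.18, adjusted p = 0.000697 by edgeR) and 1.78 (SE 0.28, adjusted p = 0.00308 by edgeR). Asap1, an activator of ARF GTPase hydrolysis, rose by 1.51 (SE 0.21, adjusted p = 0.0017 by edgeR) and 1.16 (SE 0.27, adjusted p = 0.0123 by edgeR). Arhgef17 had 5.33 to 6.19 CPM in the 4 controls, where control culture 1 did not stand out, and 11.2 to 36.1 CPM in the other groups. With 1 culture left out the number that rose lay between 4 (without control culture 3 or MYO5BΔIEC culture 2) and 11 (without control culture 1) in MYO5BΔIEC, and between 4 (without control culture 3) and 10 (without control culture 1) in MYO5B(G519R) enteroids. In the fits without control culture 1, 21.2% and 24.0% of all genes rose. With Compound-1 against vehicle none of these lists held a gene that passed.

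**Figure D5:**
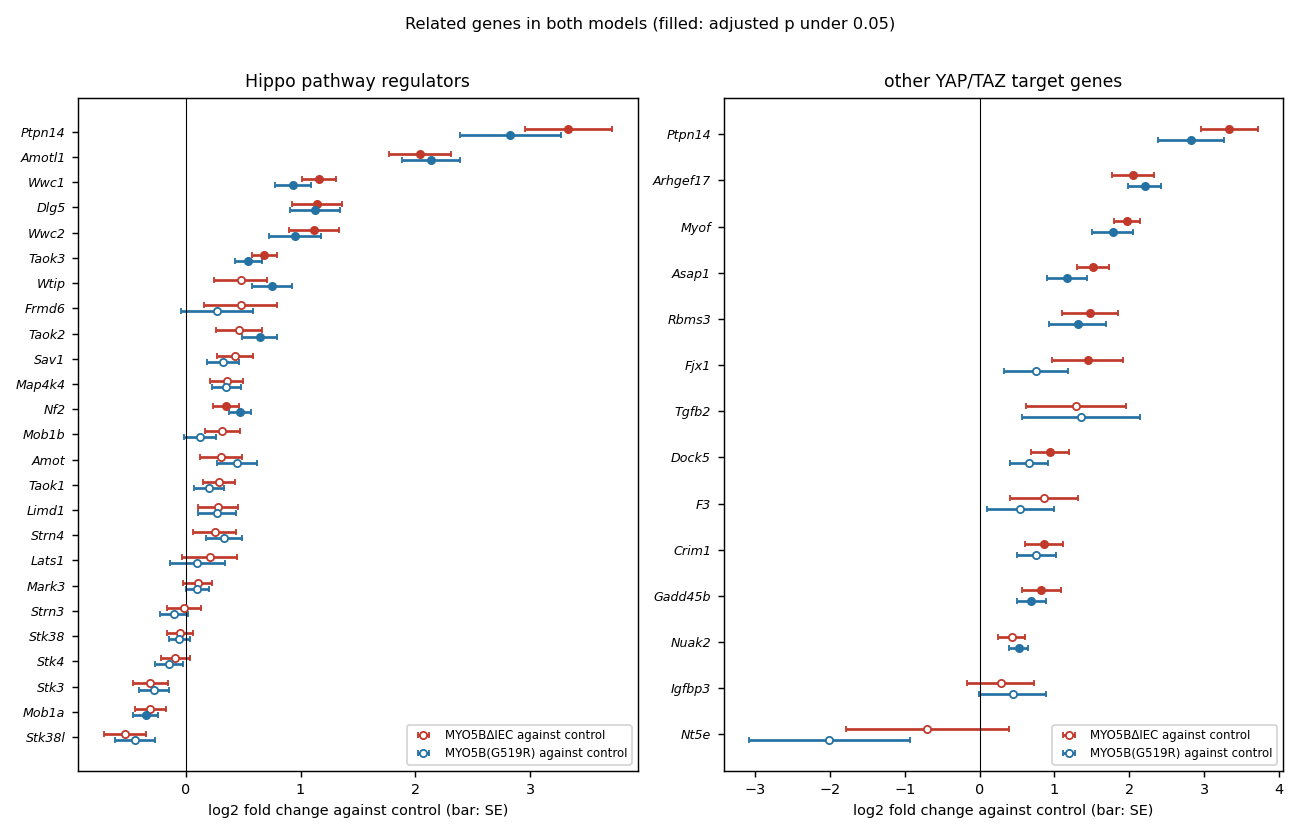
Log2 fold change against control with its SE for 25 Hippo pathway regulators and 14 further YAP and TAZ target genes in MYO5BΔIEC and MYO5B(G519R) enteroids; filled points have an edgeR adjusted p under 0.05. Ptpn14, Amotl1, Arhgef17 and Myof lie farthest to the right in both models, while Stk3, Stk4 and Lats1 lie between -0.31 and 0.21.

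Compared per length, on the authors' FPKM scale (fragments per kilobase of gene, scaled to library size), the order of the members in control was Yap1 at 8.37 ± 1.06 (SD, n = 4), Ajuba at 5.58 ± 5.21, Cyr61 at 3.22 ± 1.24, Tead1 at 2.86 ± 1.14, Wwtr1 at 1.93 ± 1.66, Amotl2 at 1.73 ± 1.11, Ctgf at 0.59 ± 0.222 and Lats2 at 0.396 ± 0.122, with Ankrd1 and Axl at 0.00913 and 0.00623. From Cyr61 to Amotl2 each neighbour lay within the spread of the next. The SD of Ajuba rests on control culture 1, at 13.4 FPKM against 2.74 to 3.26 in the other controls. In MYO5BΔIEC enteroids Ajuba was at 12.9 ± 2.91 and Yap1 at 11.8 ± 0.869 FPKM, and Ctgf at 4.14 ± 1.74 had passed Wwtr1 and Amotl2. The FPKM of Yap1 was 2.25 to 10.6 times that of Wwtr1 over the 4 controls, 2.36 to 4.88 times in MYO5BΔIEC, 2.68 to 11.9 times in MYO5B(G519R) and 1.97 to 3.49 times in treated enteroids. The lowest control value, 2.25, is that of control culture 1. The other controls lay between 4.91 and 10.6, above every MYO5BΔIEC and treated culture, so the overlap of these groups with control rests on control culture 1, while the MYO5B(G519R) range overlapped the other controls too. No test was made on this ratio.

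Over all 16 cultures and 13544 genes, those whose log2 CPM followed Ctgf most closely were Tnfrsf10b, a death receptor (Pearson r = 0.97), Slc25a48 and Sgsm2 (both 0.96). For Cyr61 they were the immediate early gene Nr4a1 (0.94), Cenpt and Chrnb1 (both 0.93), and for Yap1 Nacc1, Csk and Ptgfrn (all 0.98). The 16 points share 4 groups and the 4 controls, so these values are a description of likeness, and the difference between controls and the other groups is part of each.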

How the data were processed

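RNA of 16 enteroid cultures was analyzed, in 4 groups of 4 taken from the sample labels. The submitters' processing notes name STAR 2.5, TopHat, HTSeq 0.6.1 and DESeq2, and the build GRCm38. The deposited counts are reads per gene, and the authors made the FPKM values from counts by gene length and library size. How reads with several matches and strand were treated is not given in the sources used here, so close paralogs and overlapping antisense genes are uncertain. The gene length column was used as deposited.

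The quasi-likelihood F test of edgeR 4.0.16 (R 4.3.3) was run on pairs of groups after TMM scaling, on genes that reached 10 counts in 2 or more of the 8 cultures, with adjustment by the Benjamini-Hochberg method and a threshold of 0.05. SE is the log2 fold change divided by the square root of F. Scripts were tested on simulated data.

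The 10 members and the gene lists were chosen with earlier results of these data known. Named beside members were 8 paralogs, up to 4 of the largest rises and falls per list in MYO5BΔIEC enteroids with a mean of 1 CPM or more, and the 3 genes most like Ctgf, Cyr61 and Yap1; the core kinases, Mob1a, Nf2 and Vgll3 were added after their values were seen. Alternatives were DESeq2 1.42.0, its size factors, filterByExpr, no filter, all 4 groups in 1 fit, a replicate block, mitochondrial genes left out of library sizes, a gene length offset, limma 3.58.1 on log2(FPKM + 1) and each culture left out.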

Additional observations from a re-analysis of the deposited data

Results flagged for a closer look

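Of 40 sets of 4 cultures (10 genes in 4 groups), 7 held a culture far from the other 3 by Dixon's test. Chance gives about 1 in 20 for independent sets of normally distributed values. These sets come from related genes in the same cultures, so the 7 cannot be read as an excess over that rate. Control culture 1 was such a culture for Ajuba (49.2 CPM, next 12.2) and Tead1 (62.5 CPM, next 33.3). MYO5B(G519R) culture 3 was one for Ctgf (18.8 CPM, next 7.24), Lats2 (6.31 CPM, next 4.44) and Tead1 (72.1 CPM, next 61.2). Compound-1-treated culture 3 was one for Ctgf (37.5 CPM, next 13.4). The Ankrd1 level of 0.0665 CPM in control culture 2 rests on 2 counts beside 3 controls with none.

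Control culture 1 had the highest Ajuba level of the controls. Its enterocyte marker sum was 2775 CPM, against 12179 to 15212 CPM in the other 3 controls. In MYO5BΔIEC enteroids culture 4 had the lowest marker sum (5432 CPM) and the highest Ajuba level (61.8 CPM). In MYO5B(G519R) enteroids culture 3 had both the highest marker sum (7664 CPM) and the highest Ajuba level (56.9 CPM). The part of these markers in the levels of the 10 genes was not tested. Against control cultures 2 to 4 alone, all 12 cultures of the other groups were higher for 9 of the 10 genes, and 11 of 12 for Wwtr1, where all 12 were higher for 15.8% of the 19000 genes with enough counts. Control culture 1 was set aside partly because it was high in these genes, so this count is partly built in. Ankrd1 and Axl, among the 9, had enough counts only through the other groups and had to be higher there.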

How the results depend on the processing

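In each comparison with control the fold changes of the 10 genes were above 0 under every alternative run in which the gene could be tested. With 1 culture left out, the genes called ranged from 2963 (without MYO5BΔIEC culture 2) to 7474 (without control culture 1) in MYO5BΔIEC, from 2880 (without control culture 3) to 8146 (without control culture 1) in MYO5B(G519R) and from 2957 (without control culture 3) to 7459 (without control culture 1) in treated enteroids. The members called ranged from 3 to 10, 4 to 10 and 5 to 10. The other alternatives gave 6 to 9, 5 to 7 and 8 to 10 members. Between MYO5B(G519R) and MYO5BΔIEC enteroids 0 to 2 genes were called with 1 culture left out, 4 by DESeq2, 2 with no filter and 0 by limma on log2(FPKM + 1). Compound-1 against vehicle gave 91 genes by DESeq2, 1 of them a member (Ankrd1), and 12 genes with no filter. The cause of these differences was not tested.

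Directions turned only for members that did not pass, with 1 culture left out. Under Compound-1 the log2 fold change lay between -0.053 (without treated culture 3) and 0.30 for Lats2, where it was also below 0 without MYO5BΔIEC culture 1 or 4, between -0.29 and 0.10 (without MYO5BΔIEC culture 4) for Cyr61, where it was also above 0 without treated culture 1, and between -0.13 (without treated culture 3) and 0.74 for Ctgf. Between the models it lay between -0.39 and 0.14 (without MYO5B(G519R) culture 4) for Wwtr1, where it was also above 0 without MYO5BΔIEC culture 2, and between -0.32 and 0.0061 (without MYO5BΔIEC culture 4) for Ajuba. Removing the gene length trend left 6 members in MYO5BΔIEC enteroids, without Yap1.

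Cultures with the same replicate number did not deviate together in all pairs of any comparison (r of -0.228 to 0.142 in MYO5BΔIEC against control, and of 0.0691 to 0.571 between the models, where 3 of 4 pairs were over 0.1), so the numbers were not taken to pair them. Cultures of different groups may still come from the same mice under other numbers, which this check cannot exclude. Treated culture 2 and vehicle culture 4 had the highest r under Compound-1, 0.499. With the replicate block 3647, 3691 and 4401 genes and 7, 7 and 9 members were called against control, 0 genes under Compound-1 and 1 between the models. In MYO5BΔIEC enteroids Cyr61 and Yap1 were lost and Amotl2 and Ajuba gained, in MYO5B(G519R) enteroids Lats2 was lost and Ajuba gained, and in treated enteroids Cyr61 was lost and Wwtr1 gained. Of the 4 cultures, 1 correlated best with its own number in each comparison with control, 0 under Compound-1 and 3 between the models. At these depths 3 counts, the most that a count of 0 allows, limit statements on Ankrd1 and Axl in control, and with 4 cultures a group a log2 fold change of 0.87 with an SE of 0.48, that of Wwtr1 in MYO5BΔIEC enteroids, did not pass.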
